A study of Mus musculus with 41 samples.

Results

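Tubulins are the building blocks of microtubules, and 9 tubulin genes were followed here in mouse embryonic stem cells (ESCs) labelled as Caprin1 knockout or wild type. The 9 are the alpha-tubulin genes Tuba1a, Tuba1b and Tuba1c and the beta-tubulin genes Tubb2a, Tubb2b, Tubb3, Tubb4b, Tubb5 and Tubb6, taken by name from 51410 genes in the deposited count tables. CAPRIN1 is an RNA-binding protein of the cytoplasm, and the study compared RNA with and without it as ESCs leave the stem cell state. RNA-seq libraries came from Caprin1 knockout (KO) clone 2, KO clone 4 and wild-type (WT) R1 cells, R1 being the ESC line used as the comparison. All of these cells had spent 4 days in medium with 1 µM retinoic acid, a differentiation signal, and without LIF, the cytokine that keeps ESCs undifferentiated. They then received 2 µg/ml α-amanitin, which blocks RNA polymerase II, for 0, 2, 4 or 8 h. Each time had 2 libraries of KO clone 2, 2 of KO clone 4 and 4 of WT cells, except that 1 library of KO clone 4 (replicate 2) was analysed at 0 h. Each KO group is a single clone, and the labels do not say whether libraries of a group came from separate cultures, so p-values measure the spread between these libraries, which may be technical.

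An alpha-tubulin and a beta-tubulin fold with the help of the CCT chaperonin and dedicated cofactors, pair into a heterodimer, and polymerise into microtubules that carry cargo and build the mitotic spindle. Mammals make several closely similar isotypes of each from separate genes. Tubb3 encodes the class III beta-tubulin, widely used as a marker of neurons, and Tuba1a and Tubb2b are prominent isotypes of the developing nervous system, while Tubb5 is expressed in nearly all dividing cells. Tubulin mRNAs are also subject to autoregulation, in which TTC5 recognises the nascent tubulin chain on the ribosome when free dimers are abundant and the mRNA is then degraded through SCAPER and the CCR4-NOT complex.

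Total counts per library were 3.95 to 31.6 M in the 0 h table (median 19.5 M, n = 7), 6.36 to 8.37 M in the 2 h table (median 7.03 M, n = 8), 3.46 to 10.2 M in the 4 h table (8.04 M, n = 8) and 7.24 to 10.6 M in the 8 h table (8.72 M, n = 8). The targeted transcript separated the clones: Caprin1 averaged 139.7 ± 34.7 CPM (counts per 1000000 counts of the library, with TMM scaling) over the 8 libraries of KO clone 2 (SD), 1076 ± 98.1 CPM in the libraries labelled KO clone 4 (n = 7) and 989 ± 106 CPM in WT cells (n = 16). Counts per gene cannot tell whether that transcript still makes protein, and below "clone 4" means the libraries so labelled. Summed over 10 pluripotency markers, clone 2 libraries had 1003 to 1195 CPM, clone 4 libraries 598 to 933 CPM and WT libraries 486 to 689 CPM. Over 20 neuronal markers the sums were 94.6 to 120 CPM in clone 2, 130 to 158 CPM in clone 4 and 128 to 182 CPM in WT cells, with the neuronal genes Snap25 and Neurog2 at 0 counts in several groups. Over 12 markers of fibroblast feeder cells they were 884 to 1203 CPM in clone 2, 4438 to 4945 CPM in clone 4 and 1636 to 2348 CPM in WT cells. The median log2 difference of clone 2 from WT over the feeder markers was 0.78 at 0 h and -0.01 at 8 h, so the lower sum does not hold for most of them. The part of these marker differences in the tubulin results was not tested, and in bulk RNA fewer cells of a type and less RNA per cell cannot be told apart.

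All 9 tubulin genes were detected in all 31 libraries, with between 43 counts (Tubb3 in clone 2 at 2 h) and 59408 counts (Tubb5 in clone 2 at 0 h) each. On a per-length scale (RPKM, which is CPM divided by the gene length in kilobases as the count table gives it), Tubb5 had by far the highest level in WT cells at 0 h, 384 ± 10.9 RPKM (SD, n = 4). Tubb6 (109 ± 15.1 RPKM) and Tubb4b (92.0 ± 5.98 RPKM) came next, and their libraries overlapped. Tuba1a followed at 79.8 ± 3.38 RPKM, the highest of the alpha genes, then Tuba1b at 44.4 ± 3.90, Tubb2b at 36.3 ± 2.94, Tuba1c at 26.2 ± 3.13, Tubb2a at 10.3 ± 1.24 and Tubb3 at 7.81 ± 0.768 RPKM. From Tubb4b down, no 2 neighbours in this order overlapped. The coding sequences of Tuba1a, Tuba1b and Tuba1c are closely alike, as are those of Tubb2a and Tubb2b, and how reads that match several genes were counted is not given in the sources used here, so the split of counts within these groups is uncertain.

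The genes lie at dispersed loci, with 2 clusters. On RefSeq's GRCm38.p6 annotation, Tuba1b (chr15:98931429-98934390), Tuba1a (chr15:98949847-98953501) and Tuba1c (chr15:99029891-99038105) are close together on chromosome 15, and Tubb2a (chr13:34074278-34078008) and Tubb2b (chr13:34127008-34130354) on chromosome 13. Tubb3 is at chr8:123411553-123422015, Tubb4b at chr2:25222158-25224702 and Tubb5 at chr17:35833920-35838301. Tuba1b overlaps the RefSeq gene Gm41396 and Tubb4b overlaps Fam166a.

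The 200 bases before the RefSeq start were read from the GRCm38.p6 genome for 7 members and are printed for 4 that the results below turn on: Tuba1a and Tubb3, which were low in clone 2, Tuba1b, which lost counts at 4 h, and Tubb5, the most abundant. They span chr15:98953502-98953701 (minus strand), chr15:98934391-98934590 (minus strand), chr8:123411353-123411552 (plus strand) and chr17:35838302-35838501 (minus strand), written 5′ to 3′ with the gene start after the last base.
Tuba1a: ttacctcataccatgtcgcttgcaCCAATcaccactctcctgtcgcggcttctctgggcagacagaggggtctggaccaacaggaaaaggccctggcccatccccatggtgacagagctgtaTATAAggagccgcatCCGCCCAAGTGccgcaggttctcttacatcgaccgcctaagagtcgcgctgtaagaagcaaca
Tuba1b: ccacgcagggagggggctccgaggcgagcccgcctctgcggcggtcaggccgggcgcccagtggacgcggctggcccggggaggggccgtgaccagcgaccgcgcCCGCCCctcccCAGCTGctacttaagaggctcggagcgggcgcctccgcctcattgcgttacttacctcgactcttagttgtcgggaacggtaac
Tubb3: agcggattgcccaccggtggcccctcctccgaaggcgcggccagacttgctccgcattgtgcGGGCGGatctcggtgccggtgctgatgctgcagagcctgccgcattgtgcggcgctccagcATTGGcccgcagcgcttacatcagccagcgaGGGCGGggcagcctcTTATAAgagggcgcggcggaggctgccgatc
Tubb5: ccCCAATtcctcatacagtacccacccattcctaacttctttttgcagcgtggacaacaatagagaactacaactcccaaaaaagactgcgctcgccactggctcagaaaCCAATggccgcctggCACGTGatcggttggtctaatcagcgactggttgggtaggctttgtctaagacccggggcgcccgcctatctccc
Capitals mark matches on either strand to CCAAT (the CCAAT box), to GGGCGG (the GC box), to TATAA (the TATA box) and to CANNTG (the E box). Tuba1a held 1 match to each, its GC box sharing 1 base with its E box. Tuba1b held 1 GC box and 1 E box, Tubb3 1 CCAAT box, 2 GC boxes and 2 TATA matches that overlap on opposite strands, and Tubb5 2 CCAAT boxes and 1 E box. Over 27025 promoter windows of this length, 30.0% held a CCAAT box, 31.3% a GC box, 19.3% a TATA match and 57.9% an E box, so these letters are common and describe the windows only.

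In KO clone 2, Tuba1a, Tubb2b and Tubb3 were lower than in WT cells, and so was Tubb6, while mean Tubb2a was not lower at any time. Tuba1a, Tubb2b, Tubb3 and Tubb6 were lower in both clone 2 libraries than in any WT or clone 4 library at every time. The share of all genes that separate in this way was not counted. Tubb5, the most abundant member, and Tubb4b stayed within -0.18 and 0.33 of WT on the log2 scale. Tuba1c, by contrast, was higher in clone 2 than in WT cells at 2 and 8 h.

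**Figure D1:**
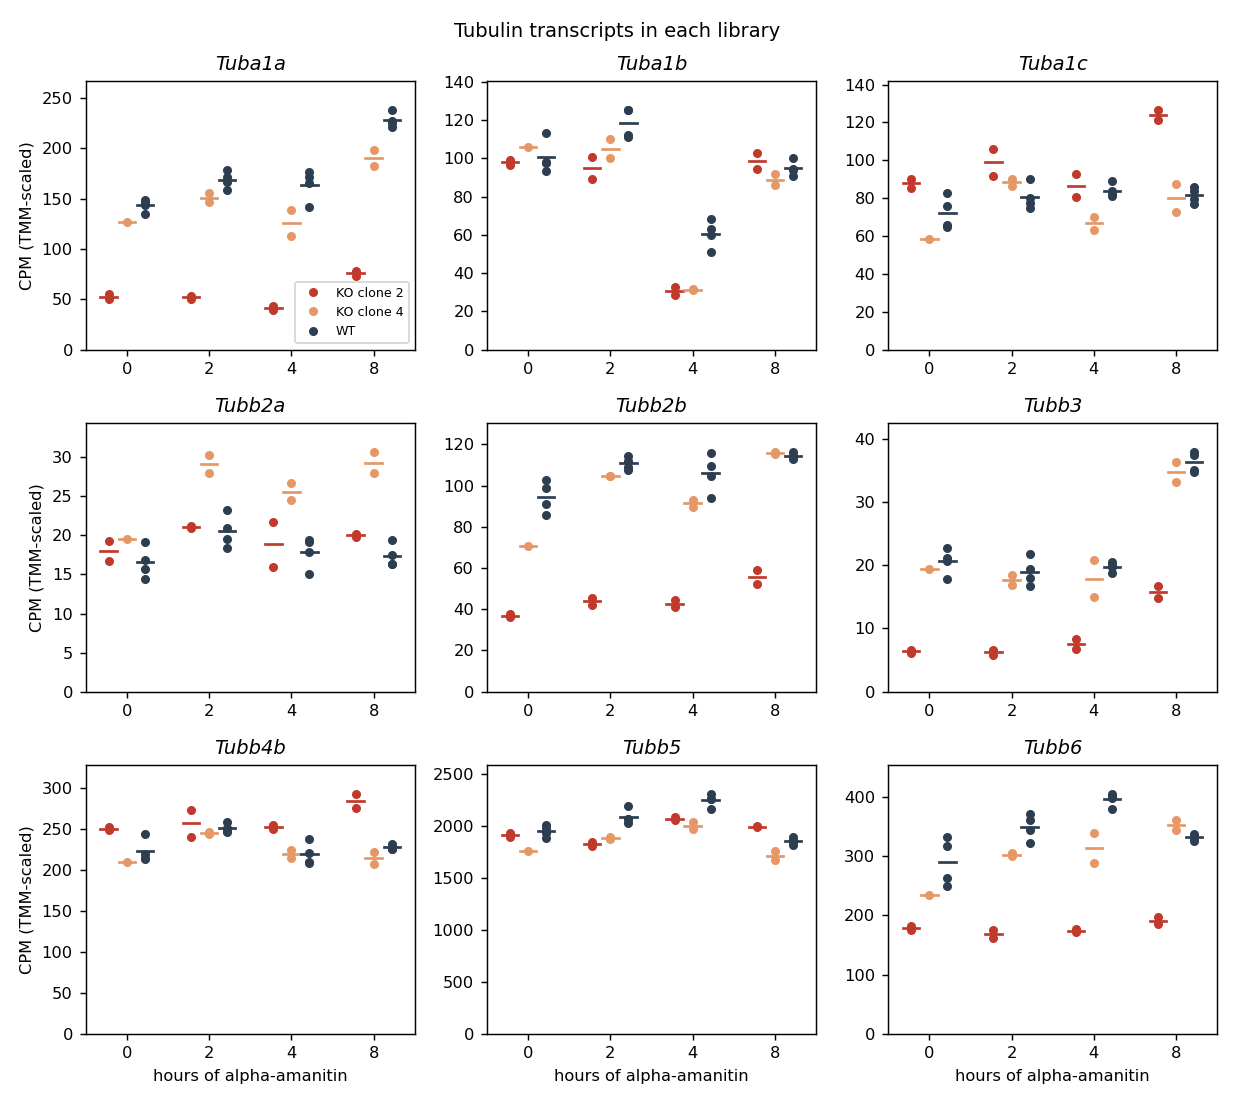
CPM (vertical axes) of the 9 tubulin genes by hours of α-amanitin (horizontal axes); each point is 1 library of KO clone 2, KO clone 4 or WT cells, and each bar is the group's mean. Tuba1a, Tubb2b, Tubb3 and Tubb6 are lowest in clone 2 at every time, Tuba1b drops at 4 h in all groups, and Tubb3 is highest at 8 h in all groups.

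Tuba1a at 0 h had 55.1 and 49.9 CPM in clone 2, 126 CPM in clone 4 and 135, 147, 148 and 144 CPM in WT cells. At 8 h it had 78.5 and 73.1 CPM in clone 2, 198 and 183 CPM in clone 4 and 225, 238, 221 and 227 CPM in WT cells. The order clone 2, clone 4, WT held at all 4 times with no overlap between groups. The log2 differences of clone 2 from WT were -1.45 (SE 0.10, FDR 1.15e-06) at 0 h and -2.01 (SE 0.092, FDR 1.92e-17) at 4 h, with -1.69 and -1.58 at 2 and 8 h, where FDR is the Benjamini-Hochberg adjusted p of edgeR's quasi-likelihood test over all genes and values below 0.05 are counted as called. The 4 h difference, the largest of the 4, is a 4.03-fold lower share of counts. Tuba1a at 4 h was itself low relative to the mean of 2 h and 8 h, by -0.59 in clone 2 and -0.26 in WT cells on the log2 scale.

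Tubb3, the neuronal class III beta-tubulin, was the scarcest member. At 0 h it had 6.09 and 6.65 CPM in clone 2, 19.3 CPM in clone 4 and 22.7, 21.2, 20.6 and 17.9 CPM in WT cells. At 8 h the values were 16.6 and 14.8 CPM in clone 2, 36.3 and 33.2 CPM in clone 4 and 34.7, 35.0, 37.4 and 37.9 CPM in WT cells. Clone 2 lay apart from both other groups, and clone 4 overlapped WT cells at all 4 times. Clone 2 differed from WT by -1.68 (SE 0.14, FDR 4.01e-06) at 0 h and -1.20 (SE 0.098, FDR 1.32e-14) at 8 h in edgeR on the log2 scale, with -1.59 and -1.39 at 2 and 4 h. The summed neuronal markers and the summed fibroblast feeder markers given above were also lowest in clone 2, and their part in the Tubb3 values was not tested. The feeder sum does not describe each gene of its list. Of 12 feeder markers tested in clone 2 against WT at 0 h, 7 were called higher and 4 lower (45.2% of all genes were called). At 8 h 4 of 11 were higher and 5 lower (63.6% of all genes).

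Tubb2b, another isotype of developing neurons, had 36.1 and 37.7 CPM in clone 2, 70.4 CPM in clone 4 and 98.9, 103, 90.9 and 85.7 CPM in WT cells at 0 h. On the log2 scale clone 2 lay -1.35 (SE 0.11, FDR 3.53e-06) from WT at 0 h, and -1.32, -1.34 and -1.03 from it at 2, 4 and 8 h. Its neighbour on chromosome 13, Tubb2a, was not called in clone 2 at any time (log2 0.02 to 0.21). Tubb6, a beta isotype of many non-neuronal tissues, had 181 and 176 CPM in clone 2, 234 CPM in clone 4 and 332, 317, 263 and 250.2 CPM in WT cells at 0 h, where WT replicates 1 and 2 stood above replicates 3 and 4. For Tubb6 clone 2 lay -0.69 (SE 0.13, FDR 0.00127) from WT at 0 h, and -1.04, -1.21 and -0.79 from it at 2, 4 and 8 h. These 16 calls (4 genes at 4 times) held under each alternative run, leaving out any single library included.

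Among the other members, Tuba1c had 127 and 121 CPM in clone 2, 87.7 and 72.9 CPM in clone 4 and 77.0, 79.7, 85.8 and 83.6 CPM in WT cells at 8 h, so that clone 2 stood above both. Its log2 difference of clone 2 from WT was 0.61 (SE 0.059, FDR 3.37e-12) at 8 h and 0.31 (SE 0.071, FDR 0.000212) at 2 h, the second no longer called without clone 2 replicate 1 (FDR 0.0839). At 0 h it was 0.28 (SE 0.12, FDR 0.0772), called when WT replicate 2 was left out (FDR 0.0149), with no filter on low counts (FDR 0.0402) and with a replicate block (FDR 0.0197). Tubb4b was higher in clone 2 at 8 h, with 293 and 275 CPM in clone 2, 222 and 207 CPM in clone 4 and 225, 228, 232 and 226 CPM in WT cells, a difference from WT of 0.33 (SE 0.048, FDR 9.58e-08). At 4 h the Tubb4b difference of 0.18 (FDR 0.0144) was lost without either clone 2 library and was about 0 when scaled to library totals only. Tubb5 had called differences of -0.18, -0.14 and 0.11 at 2, 4 and 8 h. The Tubb5 calls were lost without clone 2 replicate 2 at 2 h (FDR 0.0691), without any 1 of 7 libraries at 4 h (all but WT replicate 4; FDR 0.0549 to 0.227) and without clone 2 replicate 1 at 8 h (FDR 0.0698), and the 8 h sign turned with library totals only. With no filter on low counts, the Tubb5 calls at 4 h (FDR 0.0918) and 8 h (FDR 0.0612) were lost too. Tuba1b differed by -0.31 at 2 h (FDR 0.000119) and by -0.98 at 4 h, a time taken up separately below.

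In all, 4 of the 9 members were called in clone 2 against WT at 0 h, where 45.2% of 17130 genes were called. The count was 7 of 9 at 2 h (61.8% of all genes), 7 at 4 h (61.9%) and 7 at 8 h (63.6%). Members called lower were 4 at 0 h (22.3% of all genes were called lower), 6 at 2 h (30%), 6 at 4 h (30.8%) and 4 at 8 h (31.8%). Over the members the median log2 difference was -0.04, -0.31, -0.98 and 0.06 in time order, beside medians over all genes of 0.00, 0.01, -0.01 and 0.00. The median of -0.98 at 4 h is the value of Tuba1b itself, whose counts at that time are taken up below. With so many genes called in clone 2, the share of members called is a description of the family and does not set it apart.

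**Figure D2:**
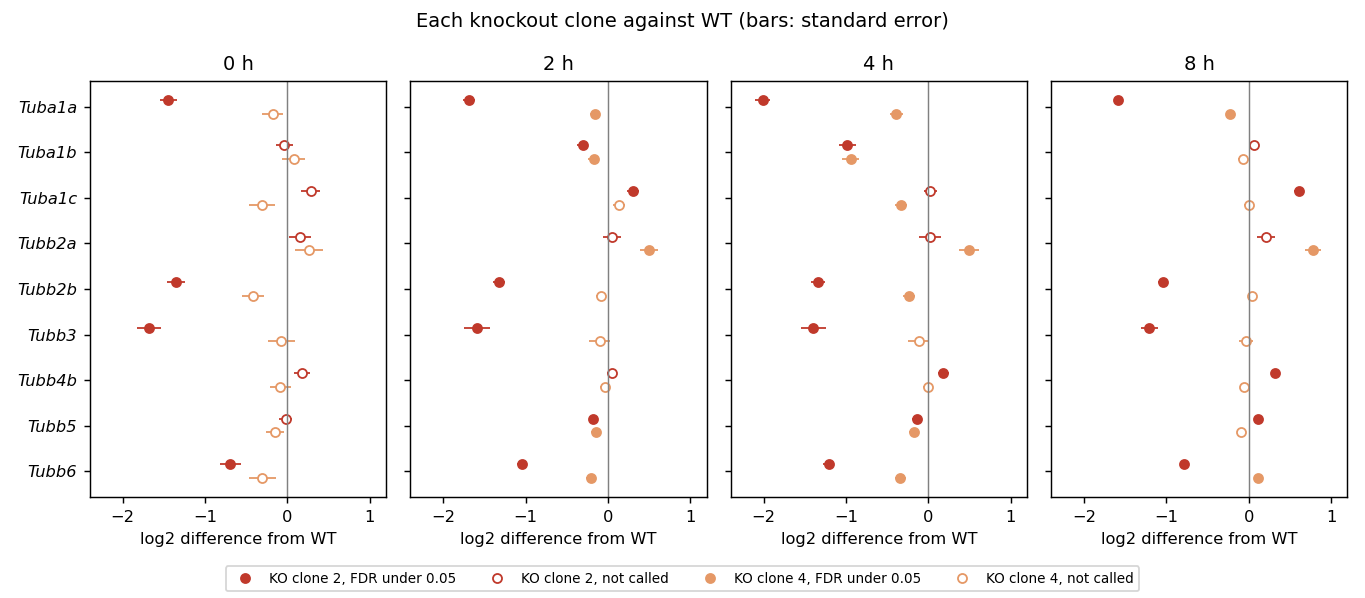
Log2 difference from WT (horizontal axes, with standard error bars) of each tubulin gene (rows) for KO clone 2 and for KO clone 4, in 1 panel per time; filled points have FDR below 0.05 in edgeR. Clone 2 points for Tuba1a, Tubb2b, Tubb3 and Tubb6 lie between -2.01 and -0.69 in all panels, while most clone 4 points lie near 0.

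Clone 4 was much closer to WT cells in its tubulins. At 0 h, edgeR called 0 of 9 members with its single library (1 at unadjusted p below 0.05, 0 by DESeq2), where 15.9% of all genes were called. At 2 h it called 5 of 9 (41.3% of all genes), at 4 h 7 of 9 (47.1%) and at 8 h 3 of 9 (37.5%). Tubb2a, not called in clone 2, was above WT cells in clone 4 and had 30.7 and 28.0 CPM in clone 4 against 19.4, 16.3, 16.4 and 17.5 CPM in WT cells at 8 h, with no overlap at any time. Its log2 difference was 0.78 (SE 0.098, FDR 9.89e-09) at 8 h, 0.50 at 2 h and 0.49 at 4 h, all called in edgeR, and 0.26 (SE 0.17, FDR 0.320) at 0 h.

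Tuba1a was lower in clone 4 than in WT by -0.39 (SE 0.079, FDR 0.000184) at 4 h and -0.23 (SE 0.050, FDR 0.000252) at 8 h on the log2 scale. At 2 h its difference was -0.16 (FDR 0.0300), no longer called without clone 4 replicate 1 (FDR 0.340), clone 4 replicate 2 (FDR 0.0509) or WT replicate 1 (FDR 0.0736), and at 0 h it was -0.18 (FDR 0.344). Tubb3 was not called in clone 4 at any time, and the 95% intervals of its log2 difference were -0.40 to 0.25 at 0 h, -0.35 to 0.15 at 2 h, -0.37 to 0.13 at 4 h and -0.20 to 0.13 at 8 h. These intervals leave out the clone 2 differences at the same times. Tubb6 in clone 4 was lower than in WT at 2 h (-0.21 (SE 0.057, FDR 0.00257)) and 4 h (-0.34 (SE 0.065, FDR 9.29e-05)) and higher at 8 h (0.12 (SE 0.046, FDR 0.0422)). The 2 h call was lost without clone 4 replicate 2 (FDR 0.0504), and the 8 h call without any 1 of the 2 clone 4 libraries or the 4 WT libraries (FDR 0.0541 to 0.351). DESeq2 did not call Tuba1a at 2 h (FDR 0.0757), Tuba1b at 2 h (FDR 0.109) or Tubb6 at 8 h (FDR 0.0675) in clone 4, nor were these called with no filter on low counts (FDR 0.0580, 0.0572 and 0.284). Of the remaining calls, Tuba1b (-0.17) and Tubb5 (-0.15) at 2 h and Tubb2b (-0.23) and Tubb5 (-0.17) at 4 h each depended on single libraries. The Tuba1b call was lost without clone 4 replicate 1 (FDR 0.429), WT replicate 1 (0.0952) or WT replicate 2 (0.125), the Tubb2b call without clone 4 replicate 2 (0.105), and both Tubb5 calls without either clone 4 library (FDR 0.0581 to 0.176). Tuba1c was lower in clone 4 at 4 h, by -0.33 (SE 0.076, FDR 0.000725).

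A direct test of clone 2 against clone 4 called 4 of 9 members at 0 h (23.9% of all genes), 5 at 2 h (48.7%), 7 at 4 h (47.6%) and 8 at 8 h (58.4%). Tuba1a differed by -1.27 (SE 0.13, FDR 5.89e-05) and Tubb3 by -1.60 (SE 0.18, FDR 0.000107) at 0 h on the log2 scale. Tubb2b was lower in clone 2 by -0.93 (SE 0.14, FDR 0.000917) at 0 h, and Tuba1c higher by 0.59 (SE 0.17, FDR 0.0308), the Tuba1c call being lost without either clone 2 library (FDR 0.0899 and 0.154). These differences between 2 clones that are both labelled KO stand beside -1.45 for Tuba1a, -1.68 for Tubb3 and -1.35 for Tubb2b in clone 2 against WT cells.

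Pooling both clones as KO against WT left few tubulin calls, in a fit whose error includes the gap between the clones. At 0 h 2 of 9 members were called (26.1% of all genes): Tubb2b, lower by -0.98 (SE 0.23, FDR 0.0177), and Tubb6, lower by -0.56 (SE 0.15, FDR 0.0290). Both calls were lost without any 1 of clone 2 replicate 1, clone 2 replicate 2, WT replicate 1 and WT replicate 2 (FDR 0.0541 to 0.0661 for Tubb2b and 0.0774 to 0.119 for Tubb6). Without the single clone 4 library, Tuba1a (-1.45, FDR 1.76e-06) and Tubb3 (-1.69, FDR 6.46e-06) were called as well. At 2 h 1 member was called (31.5% of all genes), Tuba1b at -0.24 (SE 0.079, FDR 0.0461), a call lost without any 1 library other than clone 4 replicate 2 (FDR 0.0583 to 0.127). At 4 h 2 were called (36.3%), Tuba1b at -0.98 (SE 0.10, FDR 0.000602) and Tubb6 at -0.71 (SE 0.22, FDR 0.0362). The Tubb6 call at 4 h was lost without either clone 2 library or any 1 WT library (FDR 0.0624 to 0.0809), and without clone 4 replicate 1 Tuba1a (-1.34), Tubb2b (-0.88) and Tubb3 (-0.99) were called. At 8 h edgeR called 0 of 9 (17.3% of all genes), with 1 member at unadjusted p below 0.05 and 1 called by DESeq2.

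The summed tubulin share of the libraries was lowest in clone 2 at 2 and 4 h. The 9 genes together had 2641 ± 45.5 CPM over the 2 clone 2 libraries (SD), 2602 CPM in the 1 clone 4 library and 2916 ± 116 CPM in WT cells (n = 4) at 0 h. At 4 h they had 2728 ± 14.8 CPM in clone 2, 2895 ± 108 CPM in clone 4 and 3317 ± 77.7 CPM in WT cells. Tubb5 alone made up most of this sum in all 3 groups.

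The mix of alpha isotypes differed most. Of the RPKM summed over the 3 alpha genes at 0 h, Tuba1a held 28.0% ± 0.884 in clone 2, 50.9% in clone 4 and 53.1% ± 1.77 in WT cells. Tuba1b held 41.5% ± 0.870 in clone 2, 33.8% in clone 4 and 29.5% ± 1.14 in WT cells, and Tuba1c 30.6% ± 0.0140, 15.3% and 17.4% ± 1.06 in the same groups. Tuba1a held the largest alpha part in clone 4 and WT cells at all 4 times. In clone 2 the largest part was that of Tuba1b at 0 and 2 h and that of Tuba1c at 4 h (46.1% ± 2.52) and 8 h (34.4% ± 0.559, beside 33.3% ± 0.469 for Tuba1b). The 4 h parts include the low Tuba1b counts of that time, taken up below. Tuba1c itself averaged 86.6 CPM in clone 2 at 4 h, beside 98.9 CPM at 2 h and 124 CPM at 8 h. Of the RPKM summed over the 6 beta genes, Tubb5 held 65.5% ± 0.0278 in clone 2, 61.0% in clone 4 and 60.1% ± 1.54 in WT cells, and Tubb6 11.7% ± 0.0565, 15.5% and 17.0% ± 1.57. Tubb3 held 0.421% ± 0.0329 in clone 2, 1.30% in clone 4 and 1.22% ± 0.0912 in WT cells at 0 h, and 0.961% ± 0.0600, 2.08% ± 0.0522 and 2.11% ± 0.0795 at 8 h.

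**Figure D3:**
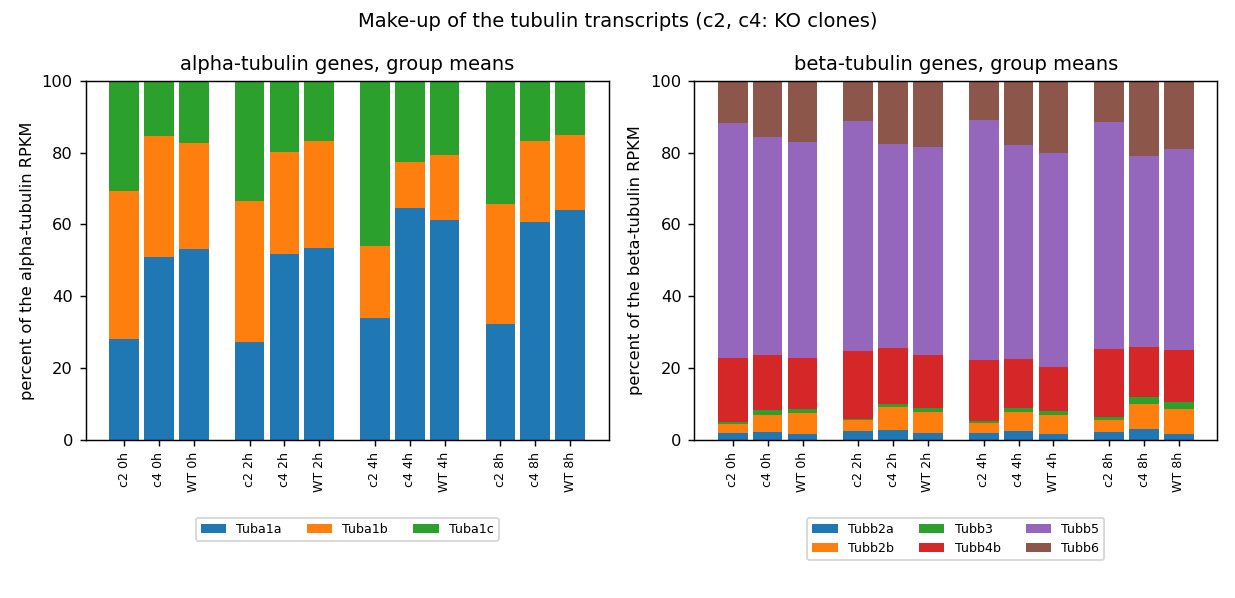
Stacked percentages (vertical axes) of the summed RPKM of the 3 alpha-tubulin genes and of the 6 beta-tubulin genes, for KO clone 2, KO clone 4 and WT cells at each hour of α-amanitin (horizontal axes); each bar is a group's mean. Tuba1a holds 27.1% to 34.0% of the alpha sum in clone 2 and 50.9% to 64.7% in clone 4 and WT cells, and Tubb5 is the largest beta part in every bar. The alpha bars at the third time include the low Tuba1b counts found there in all groups.

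With RNA polymerase II inhibited, Tubb3 held a larger share of the library at 8 h than at 2 h in clone 2, clone 4 and WT cells. CPM is a share of what remains, so a higher value at 8 h is a larger share and does not say that the transcript's amount grew. Since each time has its own count table, time and table cannot be told apart. In the fit of 8 genotype-by-time groups, edgeR called 0 of 9 members in WT cells between 2 h and 0 h (11.5% of all genes; 2 members at unadjusted p below 0.05, 1 by DESeq2). Between 4 h and 0 h it called 2 (33.9%), Tuba1b at -0.74 (SE 0.082, FDR 7.15e-08) and Tubb5 at 0.20 (SE 0.056, FDR 0.00664), the second lost without any 1 of replicate numbers 1, 2 and 3 (FDR 0.0668 to 0.0831). Between 8 h and 0 h it called 0 (29.7%; 1 at unadjusted p below 0.05, 0 by DESeq2). Between 8 h and 2 h it called 2 (23.8%), Tuba1b at -0.32 (SE 0.081, FDR 0.00472) and Tubb5 at -0.17 (SE 0.056, FDR 0.0305), the first lost without replicate number 1 (FDR 0.121) and the second without any single replicate number (FDR 0.0728 to 0.278).

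That fit takes its error partly from the gap between the KO clones, and a fit of 12 clone-by-time groups does not. There WT cells had 6 members called at 2 h against 0 h (27.7% of all genes), 6 at 4 h against 0 h (52.2%), 4 at 8 h against 0 h (51.1%) and 5 at 8 h against 2 h (42.5%). At 8 h against 0 h, Tubb3 rose by 0.83 (SE 0.087, FDR 1.01e-09) on the log2 scale and Tuba1a by 0.66 (SE 0.061, FDR 5.69e-11), with smaller increases of Tubb2b (0.28) and Tubb6 (0.20). Between 8 h and 2 h Tubb3 rose by 0.94 (SE 0.094, FDR 6.33e-10) and Tuba1a by 0.43 (SE 0.062, FDR 6.63e-07), and Tuba1b fell by 0.32. Tubb3 in WT cells averaged 20.6 ± 2.03 CPM at 0 h, 19.0 ± 2.18 CPM at 2 h, 19.8 ± 0.751 CPM at 4 h and 36.3 ± 1.64 CPM at 8 h (SD, n = 4 each).

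In pooled KO cells, edgeR called 0 members at 2 h against 0 h (5.23% of all genes; 1 at unadjusted p below 0.05, 0 by DESeq2), 1 at 4 h against 0 h (31.5%) and 1 at 8 h against 0 h (15.5%). The first was Tuba1b (-1.70 (SE 0.088, FDR 1.03e-14)) and the second Tubb3 (1.25 (SE 0.40, FDR 0.0359)), whose call was lost without any single replicate number (FDR 0.0600 to 0.410). The difference between the KO and WT changes over 8 h was called for 0 members (0.0134% of all genes; 0 at unadjusted p below 0.05, 0 by DESeq2), with a 95% interval for Tubb3 of -0.62 to 1.48. Within clone 2, 4 members were higher at 8 h than at 2 h (25.8% of all genes were called), Tubb3 by 1.33 (SE 0.17, FDR 2.59e-07), Tuba1a by 0.54, Tubb2b by 0.34 and Tuba1c by 0.32. Of these the Tubb3 call alone held without each replicate number: Tuba1a was lost without replicate number 1 (FDR 0.0509), and Tuba1c and Tubb2b without number 1 or 2 (FDR up to 0.310). Within clone 4, 2 were higher (20.4%), Tubb3 by 0.97 (SE 0.13, FDR 1.65e-06) and Tuba1a by 0.33 (SE 0.088, FDR 0.00575), the Tuba1a call being lost without replicate number 1 (FDR 0.330).

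Tubb3 thus gained share between 2 and 8 h in each of the 3 groups, and its changes in clone 2 and WT cells differed by 0.39 (SE 0.20, FDR 0.258), with a 95% interval of 0.00 to 0.78. For that difference in change, 1 member was called in clone 2 (6.23% of all genes), Tubb5 at 0.30 (SE 0.078, FDR 0.0153), lost without replicate number 1 (FDR 0.472) or 2 (FDR 0.400). In clone 4, edgeR called 0 (1.68%; 1 at unadjusted p below 0.05, 0 by DESeq2).

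At 4 h, Tuba1b dropped and no other tubulin did so to the same extent. It had 32.8 and 28.4 CPM in clone 2, 31.0 and 31.5 CPM in clone 4 and 59.9, 68.0, 63.2 and 51.1 CPM in WT cells. At 2 h it had 101 and 89.2 CPM in clone 2, 100.3 and 109.9 CPM in clone 4 and 125, 125, 111 and 112 CPM in WT cells, and at 8 h 103 and 94.3 CPM, 91.6 and 86.1 CPM and 90.8, 99.9, 94.4 and 94.1 CPM in the same groups. All 8 libraries of the 4 h table lay below all 16 libraries of the 2 h and 8 h tables, and the 8 h level was again above that at 4 h with transcription inhibited.

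Relative to the mean of 2 h and 8 h, the log2 level of Tuba1b at 4 h was -1.65 in clone 2, -1.61 in clone 4 and -0.81 in WT cells. Of 10990 genes at 5 CPM or more, 0.955%, 0.965% and 2.27% lay lower in these 3 groups. The other 8 members ranged from -0.59 (Tuba1a in clone 2) to 0.22 (Tubb6 in WT cells), and the median of all genes was 0.03 in clone 2, 0.03 in clone 4 and 0.02 in WT cells. Genes with close copies elsewhere in the genome were low in the same table. For 253 genes, another counted gene had the same symbol followed by -ps, an ending used for pseudogenes. Of these 253, 28.5% in clone 2, 28.1% in clone 4 and 27.7% in WT cells fell below -1, against 1.84%, 1.57% and 1.44% of all genes. Among 26 genes chosen as known for processed pseudogenes, the medians were -0.69, -0.66 and -0.65. Annotated pseudogenes took 0.332% to 0.374% of counts in the 4 h libraries, beside medians of 0.498% at 0 h, 0.506% at 2 h and 0.481% at 8 h. What part the counting step had in the Tuba1b values was not tested, since the reads and the counting settings were not used here.

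**Figure D4:**
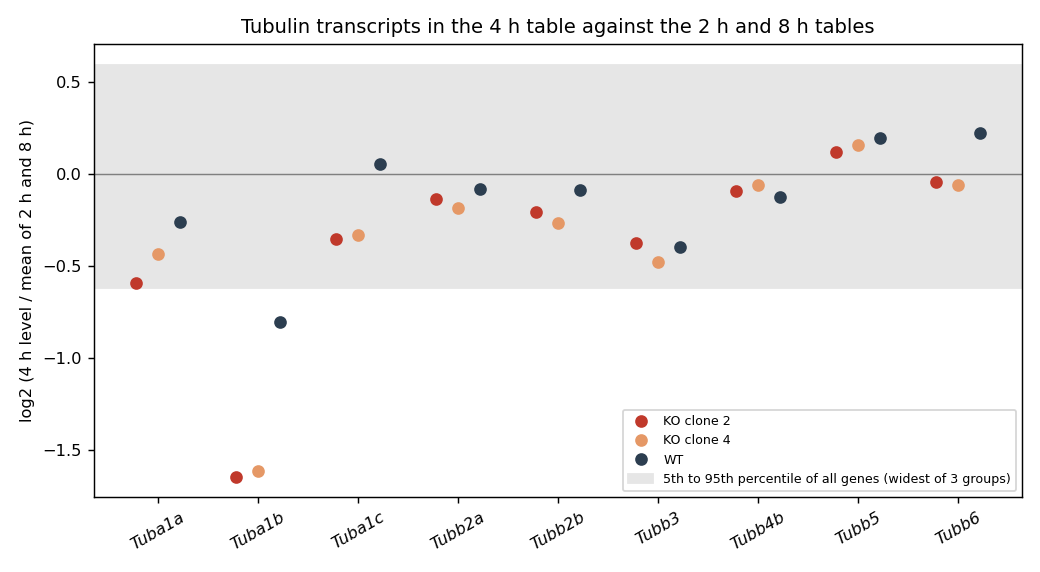
Log2 of the 4 h level over the mean of the 2 h and 8 h levels (vertical axis) for each tubulin gene (horizontal axis) in KO clone 2, KO clone 4 and WT cells; the grey band spans the 5th to 95th percentile of all genes, the widest of the 3 groups. Tuba1b lies at -1.65, -1.61 and -0.81, outside the band, and the other 8 genes lie inside it.

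The 4 h deficit of Tuba1b was deeper in both clones than in WT cells. The KO minus WT difference in the 4 h level relative to 2 h and 8 h was -0.82 (SE 0.096, FDR 1.76e-06) and was called without each replicate number. The same test called 4 members in all (7.21% of all genes), the others being Tuba1a (-0.26), Tuba1c (-0.39) and Tubb6 (-0.27). Those 3 calls were lost without single replicate numbers: Tuba1a without any 1 of the 4 (FDR 0.0737 to 0.308), Tuba1c without 1 or 2 (0.200 and 0.263) and Tubb6 without 1, 2 or 3 (up to 0.357). Over the 253 genes with a -ps copy, the median difference from WT in this 4 h measure was -0.002 in clone 2 and 0.05 in clone 4. Of them, 1.98% lay more than 0.5 below WT in both clones, beside 0.828% of the 10990 genes. The cause of the deeper Tuba1b deficit was not tested. Among the counted genes, copies named with the member's symbol and -ps were found for 2 members. These were Tubb2a (Tubb2a-ps2, 94 counts over all libraries, 1.46% of the gene and its copy) and Tubb4b (Tubb4b-ps1 and Tubb4b-ps2, 261 counts, 0.342%). Adding these counts to the genes changed no member's call. Nothing was added to Tuba1b, so this run could not test its 4 h deficit. Copies under other names were not searched for.

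Other genes of the tubulin pathway were counted from lists. Of 7 further tubulin genes tested in clone 2 against WT at 0 h, 3 were higher and 1 lower, beside 45.2% of all genes called in that comparison. Tuba3a, an alpha-tubulin of the testis, differed by 2.90 in clone 2 (edgeR FDR 1.38e-07), by 1.16 in clone 4 (FDR 0.00381) and by 2.50 when pooled. Tubb4a, a beta-tubulin of brain, was lower in clone 2 by -1.19 (FDR 0.00014) and had a difference of -0.63 in clone 4 (FDR 0.0603). Tuba4a was higher in clone 2 (0.65), while Tubd1 (-0.31) and Tube1 (0.10), the delta- and epsilon-tubulins of centrioles, were not called.

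At 2 h, the CCT chaperonin that folds tubulin and actin had 7 of its 8 subunit genes called lower in clone 2 and none higher (median log2 -0.35), against 2 higher and none lower in clone 4 (0.08). The clone 4 direction was not the same at all times. In clone 2, 3 CCT genes were lower at 0 h, 5 at 4 h and 6 at 8 h, and none was higher. In clone 4, none was called at 0 h, 2 were higher and 1 lower at 4 h, and 5 were lower and none higher at 8 h (median log2 -0.12), where 17.1% of all genes were called lower. At 2 h, of 13 tubulin folding cofactor and prefoldin genes, 4 were lower and none higher in clone 2, and 3 were higher and 1 lower in clone 4. Of 9 genes of tubulin autoregulation, 3 were higher and 4 lower in clone 2, and 4 lower in clone 4. Of 11 genes of the gamma-tubulin ring complex, which nucleates microtubules, 4 were higher and 4 lower in clone 2, and 4 lower in clone 4. Of 16 tubulin modifying enzymes, 1 was higher and 9 lower in clone 2, and 5 lower in clone 4. Of 30 stathmins and microtubule-associated proteins tested, 6 were higher and 16 lower in clone 2, and 8 higher and 9 lower in clone 4. Of all genes at 2 h, 31.8% were called higher and 30% lower in clone 2, and 21.7% higher and 19.6% lower in clone 4.

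Named by their p-values in the pooled KO comparison at 0 h, genes lower in both clones included Vash1, which with SVBP removes the terminal tyrosine of alpha-tubulin (-1.19 in clone 2 and -0.91 in clone 4 on the log2 scale), and the tubulin deacetylase Hdac6 (-0.37 and -0.58). The kinesin heavy chain gene Kif5b was higher in both (0.55 and 0.66). Called in clone 2 but not in clone 4 were Mzt1, a small subunit of the gamma-tubulin ring complex (2.22 in clone 2 and -0.35 in clone 4), the complex's adaptor Nedd1 (0.62 and 0.34), the plus-end protein Clasp2 (0.73 and 0.31) and Cnot11, the CCR4-NOT subunit used in tubulin autoregulation (-0.40 and -0.28). Among neuronal markers, the growth cone gene Gap43 was lower in both clones (-1.79 and -1.05) and the neurofilament gene Nefl higher in both (1.58 and 0.55). Of the 17 neuronal markers tested at 0 h, 9 were lower and 2 higher in clone 2 (median log2 -0.96), and 1 was lower and 1 higher in clone 4 (-0.02). Of all genes at 0 h, 45.2% were called in clone 2 (22.3% lower) and 15.9% in clone 4.

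Over the 23 libraries of the 0, 2 and 8 h tables, the genes whose log2 level followed Tubb3 most closely were Scrn1 (Pearson's r 0.976), Xpo5 (0.975) and Nop2 (0.972) of 11002 genes compared. For Tuba1b the closest were Pef1 (0.776), Ticrr (0.772) and Ncoa5 (0.765). These libraries share clones and tables, and the correlations are given as descriptions.

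CAPRIN1-bound RNA was sampled by RNA immunoprecipitation sequencing, of which the deposited tables hold only 2 lists of gene symbols with no values or directions. The control sample was labelled KO, and the samples titled RA, nocodazole, arsenate and ESC media were labelled WT. The sample titles do not use the list names 2I and CNT, so the samples behind each list were not identified here. In the authors' deposited table named 2I vs RA, 5 of the 9 tubulin genes were listed (Tuba1a, Tuba1b, Tuba1c, Tubb4b and Tubb5), or 55.6%, beside 20.2% of all genes at 5 CPM or more. In the authors' deposited table named CNT vs RA, Tubb5 was the single member listed, or 11.1%, beside 18.2% of such genes. None of Tubb2b, Tubb3 and Tubb6, which were low in clone 2, was in either list, while Tuba1a was in the first.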

How the data were processed

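RNA-seq libraries were made from total RNA with a stranded mRNA kit, per the labels' protocols; STAR 2.4.0.1, TopHat, Cufflinks, Cuffdiff, DESeq2 and FastQC 0.11.9 with the builds GRCm38 and mm10 are named in the submitters' processing notes, but which program counted reads, and how it treated strand and reads with several matches, is not given in the sources used here. The authors deposited 1 table of whole-number counts per gene for each time (51410 gene IDs after 110 repeated lines were dropped); of 32 RNA-seq samples, 31 had a column, and KO clone 4 replicate 1 at 0 h was not analysed here. The 9 immunoprecipitation samples were not analysed per sample; only 2 deposited symbol lists were used.

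Counts were tested with edgeR 4.0.16 in R 4.3.3 (TMM scaling, filterByExpr, robust quasi-likelihood fits): KO against WT and the 2 clones and WT as 3 groups, within each table; 8 genotype-by-time groups for time; and, for clone changes over time, 12 clone-by-time groups. P-values were adjusted over all genes tested (Benjamini-Hochberg, FDR 0.05). CPM used TMM factors over all 31 libraries. The SE is the log2 difference divided by the square root of F, and intervals are 1.96 SE each way. DESeq2 1.42.0, other scalings, no filter, pseudogene sums, a replicate block and leaving out libraries were alternatives, and the scripts were tested on simulated data. Where an arm has 1 library, that library is taken to vary as libraries in other groups do.

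The members, lists and tests were chosen with earlier results of these data known. The text names all members, Caprin1, other tubulin genes at 1 CPM or more, tubulin pseudogenes, up to 3 higher and 3 lower called genes per list by p (KO against WT, 0 h, 5 CPM or more), and the 3 genes most correlated with Tubb3 and Tuba1b. Gene positions and promoters came from RefSeq (GRCm38.p6), whose table matched 37071 IDs by symbol or synonym.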

Additional observations from a re-analysis of the deposited data

Results flagged for a closer look

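In WT cells, no library of any of the 9 tubulin genes stood apart from its 3 fellows at any time (36 groups of 4 examined, of which chance alone would mark about 1 in 20). The results below are tested differences between 2 groups of cells under the same contrast, given as values.

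Clone 2 and clone 4, both labelled KO, differed from each other in edgeR at each time (log2, clone 2 over clone 4). At 0 h the differences were -1.27 for Tuba1a, 0.59 for Tuba1c, -0.93 for Tubb2b and -1.60 for Tubb3. At 2 h they were -1.53 for Tuba1a, -0.45 for Tubb2a, -1.24 for Tubb2b, -1.49 for Tubb3 and -0.83 for Tubb6. At 4 h they were -1.62 for Tuba1a, 0.36 for Tuba1c, -0.47 for Tubb2a, -1.11 for Tubb2b, -1.28 for Tubb3, 0.19 for Tubb4b and -0.87 for Tubb6. The Tuba1c value at 4 h lost its call without clone 2 replicate 1 (FDR 0.0679), Tubb2a without clone 2 replicate 1 (FDR 0.238) or clone 4 replicate 1 (0.0902), and Tubb4b without any 1 of the 4 KO libraries or WT replicate 3 (0.0540 to 0.230) and in DESeq2 (0.0523). At 8 h they were -1.35 for Tuba1a, 0.60 for Tuba1c, -0.57 for Tubb2a, -1.08 for Tubb2b, -1.17 for Tubb3, 0.39 for Tubb4b, 0.20 for Tubb5 and -0.91 for Tubb6.

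Clone 2 and WT cells differed in their change between 2 and 8 h for Tubb5, by 0.30. KO and WT cells differed in the 4 h level relative to 2 h and 8 h for Tuba1a (-0.26), Tuba1b (-0.82), Tuba1c (-0.39) and Tubb6 (-0.27).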

How the results depend on the processing

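The clone 2 decreases of Tuba1a, Tubb2b, Tubb3 and Tubb6 were called at all 4 times under every alternative run (at 0 h -1.61 to -1.36, -1.51 to -1.30, -1.84 to -1.62 and -0.86 to -0.64). Counts of members called moved mainly in pooled comparisons. For KO against WT, DESeq2 called 4 at 0 h, 3 at 2 h, 5 at 4 h and 1 at 8 h; library totals only gave 2 at 2 h and 4 at 4 h; no filter gave 0 at 2 h and 1 at 4 h. For clone 4 against WT, library totals gave 1 at 0 h, and DESeq2 and no filter 3 each at 2 h. For WT over time, scaling by relative log expression, DESeq2 and omitting the 4 h table gave 1 each at 2 h against 0 h, library totals and no filter 1 each at 4 h against 0 h and at 8 h against 2 h, and the 12 groups 6, 6, 4 and 5 as reported. For KO, relative log expression and DESeq2 gave 2 each at 4 h against 0 h, and DESeq2 3 and no filter 0 at 8 h against 0 h. For the clone 2 minus WT change, relative log expression gave 2, DESeq2 3 and no filter 0. With library totals only, Tubb4b in clone 2 at 4 h turned to -0.000546 and Tubb5 at 8 h to -0.041; that scaling shifted the median of all genes by -0.18 to 0.05. The cause of these moves was not tested. Set against 0 h in place of the mean of 2 h and 8 h, Tuba1b at 4 h was -1.66 in clone 2, -1.74 in clone 4 (a single 0 h library) and -0.73 in WT cells, while the other 8 members ranged from -0.33 (Tuba1a in clone 2) to 0.46 (Tubb6 in WT cells). Signs turned there for Tuba1c (0.19), Tubb2a (0.38) and Tubb2b (0.37) in clone 4 and for Tuba1a in WT cells (0.19), among others.

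Same-numbered libraries did not in general deviate together (correlations across genotypes -0.27 to 0.19, median 0.04, n = 14; across times -0.15 to 0.50, median 0.03, n = 42), and the labels name nothing shared by a number, so samples were not treated as paired. In a group of 2 libraries the deviations mirror each other, so each clone value across times enters the 42 as 2 equal values. Same-numbered libraries across times gave 0.02 to 0.19 in clone 2 and -0.06 to 0.03 in clone 4. With the replicate block, KO against WT had 0 calls at 0, 2 and 4 h and KO at 8 h against 0 h had 0, while clone 4 against WT at 0 h had 3 and the clone 2 minus WT change 3.

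Leaving out single libraries gave 0 to 4, 0 to 2, 1 to 5 and 0 to 1 calls for KO against WT in time order, 4 to 5, 6 to 7, 5 to 7 and 6 to 8 for clone 2 against WT, 0 to 1, 2 to 6, 5 to 7 and 2 to 3 for clone 4 against WT, and 3 to 4, 5 to 6, 4 to 7 and 8 to 9 for clone 2 against clone 4. Leaving out replicate numbers gave 1 to 2 for WT at 4 h against 0 h, 0 to 1 at 8 h against 2 h, 0 for KO at 8 h against 0 h, 1 to 4 and 1 to 3 for clones 2 and 4 at 8 h against 2 h, 0 to 2 for the clone 2 minus WT change and 1 to 3 for the KO minus WT test at 4 h. Over all members this lost 90 calls, added 19 and left 1457 results on their side of the threshold. Tubb3 in clone 2 rested on 43 to 65 counts per library at 2 and 4 h.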
